A study of Danio rerio with 6 samples.

Results

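The genes described here were the long noncoding RNA (lncRNA) genes annotated in a gene count table of whole zebrafish larvae. A row was taken when it carried an Ensembl zebrafish identifier and its biotype was lincRNA (between genes), antisense (opposite to another gene), sense_intronic (inside an intron of a gene on the same strand), sense_overlapping, processed_transcript (no open reading frame annotated) or lncRNA. No row had the last of these 6 biotypes. The rule gave 2656 of 37898 genes, of which 1046 were processed_transcript, 874 lincRNA, 672 antisense, 57 sense_intronic and 7 sense_overlapping. No measured value entered the rule.

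The larvae came from intercrosses of *sart3*+/- carriers and were sorted by genotyping into *sart3* smu471 mutants (3 libraries) and WT siblings (3 libraries), all at 4 days post fertilization (dpf). The smu471 allele is a nonsense mutation on chromosome 5 that was found in a chemical mutagenesis screen, and no other allele or agent was used in either group. Each library held RNA from whole animals, so fewer cells of a type and less RNA per cell cannot be told apart in any value below. How many larvae entered a library was not given, and the p-values measure the spread between these libraries only.

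lncRNAs are transcribed by RNA polymerase II, are often spliced and are found at low levels, many of them in the nucleus. There the RNA exosome and its cofactors degrade many noncoding transcripts, and some lncRNAs carry small nucleolar RNAs or microRNAs that are cut out of their introns or exons. Sart3 is a nuclear RNA-binding protein that helps to rejoin the U4 and U6 small nuclear RNAs after each round of splicing.

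The libraries held between 16008788 and 18310233 counts on genes, with mutant libraries at the lower end. *sart3* had 1178, 1218 and 1246 counts in siblings and 923, 772 and 825 in mutants, lower in all 3 mutants (log2 fold change -0.44 ± 0.07 SE, edgeR adjusted p = 0.0023). Of 36 markers for the tissues of a larva, 17 were lower in mutants and 4 were higher, with 11 not called and 4 not tested or not listed. Those of the exocrine pancreas, intestine, retina and lens were all lower and those tested of muscle and pigment cells higher. The 4 listed for neural progenitors, which include *mki67* and *pcna* of dividing cells in any tissue, were lower too. Tissue markers thus moved with the genotype, and the part of tissue make-up in the differences below was not tested.

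Names added since this annotation show that the biotype label does not hold for every member. Of the 2656 members, 2540 had a symbol in a current table of gene names, and 76 of these symbols belonged to a protein-coding gene in RefSeq (assembly GRCz12tu) while 138 belonged to a RefSeq lncRNA. The clearest case was FO704736.1 (ENSDARG00000036044), a processed_transcript now named *rps20*, which encodes a protein of the small ribosomal subunit. Others were FO834840.1 (*dsg2.1*, a desmosomal cadherin), LO018541.1 (*oxr1a*, an oxidation resistance protein) and CABZ01088109.1 (*scaf8*, a factor that binds the tail of RNA polymerase II). All members were kept, and results that turned on such a gene are given with and without it. RefSeq coordinates were not used, and no sequence of a member was examined here.

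Counting reads showed 824 members without a count in any library, 1349 with counts too low for a test, and 483 with enough for edgeR's filter on low counts. Levels are given as CPM, counts relative to the scaled size of the library. The members tested had a median of 2.12 CPM and 2.02 FPKM (as deposited, which also corrects for gene length), beside 12.6 CPM and 4.89 FPKM for protein-coding genes. On the per-length scale the FO704736.1 gene stood first, at 1759 FPKM in siblings and 854 in mutants. It was followed by LO018013.1 (189 and 175 FPKM), CR383676.1 (105 and 101), FQ323156.1 (84.1 and 129) and BX322618.1 (78.8 and 52.1). The 2 members with the most reads, FO704736.1 and CR383676.1, held 27.6% of all reads counted on lncRNA genes.

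Mutants differed from siblings in 127 of the 483 members tested. At a Benjamini-Hochberg adjusted p under 0.05 from edgeR's quasi-likelihood test, 67 members (13.9%) were higher in mutants, against 13.6% of all 24809 genes tested. A further 60 members (12.4%) were lower, against 14.3% of all genes tested. In this fit the shares called were thus near those of the whole table, and the median log2 fold change was 0.03 beside 0.01 over all genes. With the DESeq2 test, 8.41% of 868 members tested were higher and 6.57% lower, against 11.31% and 12.24% of all genes. Without the filter on low counts, 4.48% of 1832 members were higher and 3.33% lower, against 9.36% and 10.93% of all genes. In both of these fits the shares of members were thus below those of all genes.

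A change of at least 2-fold upward was called in 43 members (8.9%), against 3.12% of all genes, and downward in 31 (6.42%), against 5.19%. The median size of the log2 fold change was 1.40 among the members that rose and 1.01 among those that fell. The members that rose had a median of 0.77 CPM in siblings and 2.69 CPM in mutants. Those that fell had 9.43 and 4.997 CPM. A gene that passed the filter only through the group in which it is high had to differ, so these shares were taken again with at least 10 counts required in every library. Of 336 members, 40 (11.9%) then rose and 44 (13.1%) fell, beside 14.4% and 14.9% of all genes. Changes of at least 2-fold were called upward in 11 members (3.27%) and downward in 16 (4.76%), beside 2.53% and 4.52% of all genes.

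**Figure D1:**
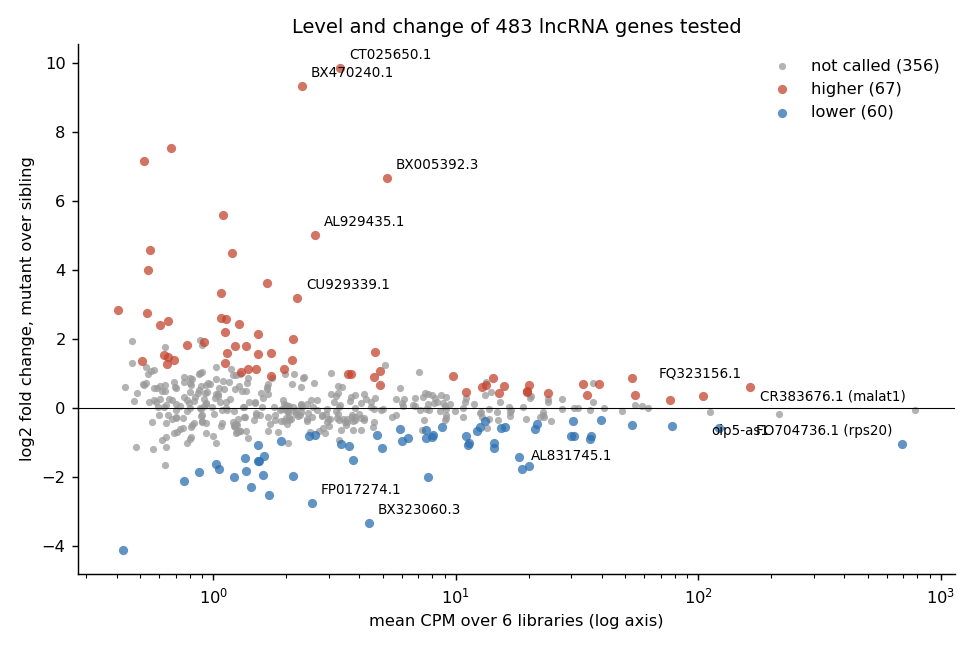
Log2 fold change of mutants over siblings (vertical axis) against the mean CPM over 6 libraries (horizontal log axis) for the 483 lncRNA genes tested. Red points are the 67 called higher, blue points the 60 called lower and grey points those not called, and the largest rises lie at low mean CPM.

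By level, the calls of members ran from 15.5% of 116 genes under 1 CPM to 24.02% of 229 genes between 1 and 5 CPM, 34.8% of 92 between 5 and 20 CPM and 47.8% of 46 above 20 CPM. Protein-coding genes ran in the same order, with 11.8%, 15.2%, 25.99% and 44.3%. Below 1 CPM a gene passes the filter largely through the group in which it is high. There 15 members rose (12.9%) and 3 fell (2.59%), all of them by at least 2-fold. Of all genes at this level 7.13% rose and 5.56% fell, and nothing is read from the direction of the members. Changes of at least 2-fold upward were called in 1 of the 92 members between 5 and 20 CPM and in 0 of the 46 above 20 CPM, beside 2.31% and 2.30% of all genes at these levels. Above 20 CPM, 9 of the 46 members rose (19.6%) and 13 fell (28.3%), beside 23.9% and 19.5% of all genes at this level.

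By biotype, 19 lincRNA genes rose (9.64%) and 25 fell (12.7%) of 197 tested, 17 antisense genes rose (16.04%) and 10 fell (9.43%) of 106, and 28 processed_transcript genes rose (16.8%) and 24 fell (14.4%) of 167, beside 13.6% and 14.3% of all genes. Of 11 sense_intronic genes 3 rose, and of 2 sense_overlapping genes 1 fell. The antisense counts turned to 4 higher and 6 lower with at least 10 counts in every library, and 11 were higher without mutant 3. The processed_transcript count of rises was 18 with that filter. Of the lincRNA genes 12 rose without mutant 1 and 15 fell without mutant 2.

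More members were found at all in mutants. A member had at least 1 count in 1137, 1157 and 1150 cases in the sibling libraries and in 1269, 1282 and 1327 in the mutant libraries, although the mutant libraries held fewer counts in all. The groups did not overlap, and the mean was 12.6% higher in mutants (two-sided exact permutation test, p = 0.1, and 3 against 3 libraries can give no smaller value). Over all genes of the table the mean rose by 1.21% (29415.7 ± 71.7 and 29771 ± 76.1, SD, n = 3, exact permutation test, p = 0.1), also without overlap. For protein-coding genes the mean number found was 0.263% higher in mutants (22077.7 ± 45.0 and 22135.7 ± 34.5, SD, n = 3, exact permutation test, p = 0.2). A count in any library was found for 23565 protein-coding genes and 1832 members. The protein-coding number thus had less room to rise in proportion. The sets were not matched for level, so the larger rise is not read as a trait of lncRNA genes.

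The summed level went the other way, and 1 gene carried it. The members together had 5603, 5690 and 5514 CPM in siblings and 5114, 5161 and 5009 CPM in mutants. This was a fall of the mean from 5602 ± 87.8 to 5095 ± 77.6 CPM (SD, n = 3, exact permutation test, two-sided, p = 0.1). Without the FO704736.1 gene the sums were 4674 ± 97.7 and 4642 ± 57.3 CPM (exact permutation test, p = 0.7), and the groups overlapped. The 1272 members that overlap no other gene of the table summed to 2065 ± 23.3 CPM in siblings and to 2142 ± 10.6 CPM in mutants (exact permutation test, p = 0.1), which is the opposite direction. The FO704736.1 gene holds a small nucleolar RNA row and so is not among these 1272.

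**Figure D2:**
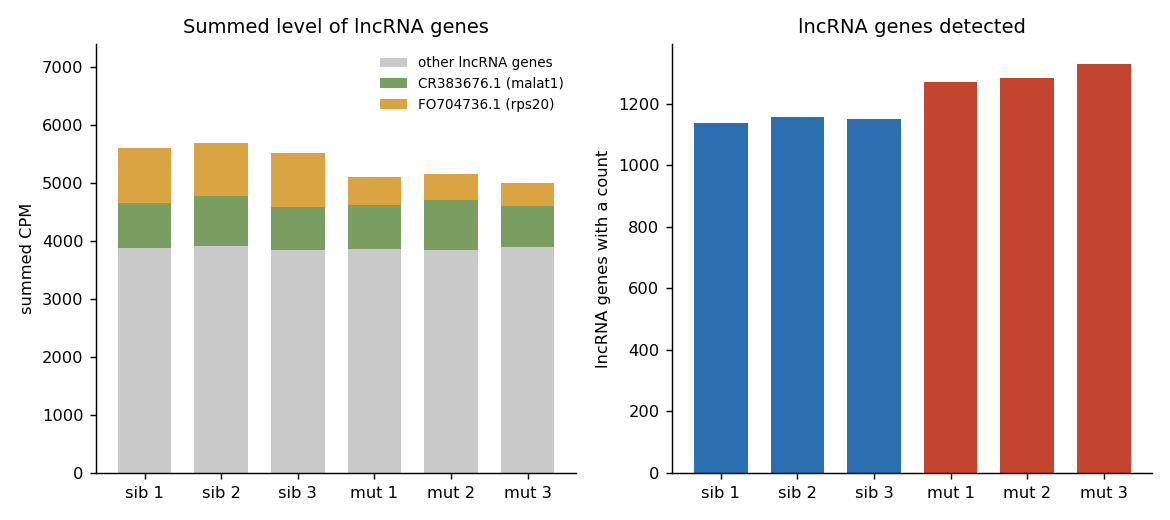
Summed CPM of all 2656 lncRNA genes in each library (left, bars from 0, stacked as FO704736.1, CR383676.1 and all others) and the number of lncRNA genes with a count in each library (right, bars from 0). FO704736.1 is about halved in the 3 mutant bars, and all 3 mutant libraries hold more detected genes than any sibling library.

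The largest rises were of genes without a count in any sibling. CT025650.1 (chromosome 5, 35526757 to 35540896, GRCz11) had 0 counts in each sibling library and 130, 102 and 104 in the mutants, or 7.52, 6.35 and 6.21 CPM. Taking 3 counts in each library as the floor, it was at least 39.6-fold higher in mutants. Its current symbol is that of a protein-coding gene in RefSeq. BX470240.1 (chromosome 4, 15757435 to 15759673), which lies opposite to *exoc4*, a subunit of the exocyst, had 0 counts in siblings and 93, 82 and 57 in mutants, at least 27.4-fold higher.

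BX323575.1, opposite to the semaphorin gene *sema6dl*, and BX897682.1 were the other pair with 0 counts in all siblings. Their mutant counts were 13, 19 and 35 and 20, 20 and 12, at least 7.94-fold and 6.16-fold higher. No tested member showed the reverse, counts in siblings and none in any mutant. The nearest was CR450833.1, with 43 counts over the siblings and 2 over the mutants, a ratio of mutants to siblings of 0.0495 (exact 95% counting interval 0.00581 to 0.19). A member at 0 in a group passes the filter only through the other group. Such genes were not counted over the whole table, so nothing is read from this direction.

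BX005392.3 (chromosome 24, 17322644 to 17325645) had the highest mutant level among the 12 largest rises. It had 0.112, 0.17 and 0 CPM in siblings and 11.7, 10.7 and 8.54 CPM in mutants, or 6.67 ± 0.44 (SE) as a log2 fold change (adjusted p = 1.86e-05). It overlaps no gene of the table, and the gene with the nearest start, *pdia4*, a chaperone of the endoplasmic reticulum, was not called (log2 fold change 0.24, adjusted p = 0.11). Members with at most 3 counts over all siblings were also BX322555.4, AL645792.2 and CU694757.1, whose ratios of mutants to siblings were 57.4 (exact 95% counting interval 15.5 to 480), 28.2 (7.43 to 239) and 18.1 (5.85 to 90.6).

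CU571163.1, CU927934.3 and BX323453.1 were also among the 12 largest rises, and the last of the 12, AL929435.1, overlaps a coding gene and is described with such members. They stood at 0 to 0.225, 0.168 to 0.394 and 0.0561 to 0.283 CPM in siblings. In mutants they stood at 2.03 to 2.74, 1.73 to 3.99 and 1.79 to 2.24 CPM. Their log2 fold changes were 4.50, 3.63 and 3.34. Of the 12 largest rises, 4 overlapped a protein-coding gene.

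**Figure D3:**
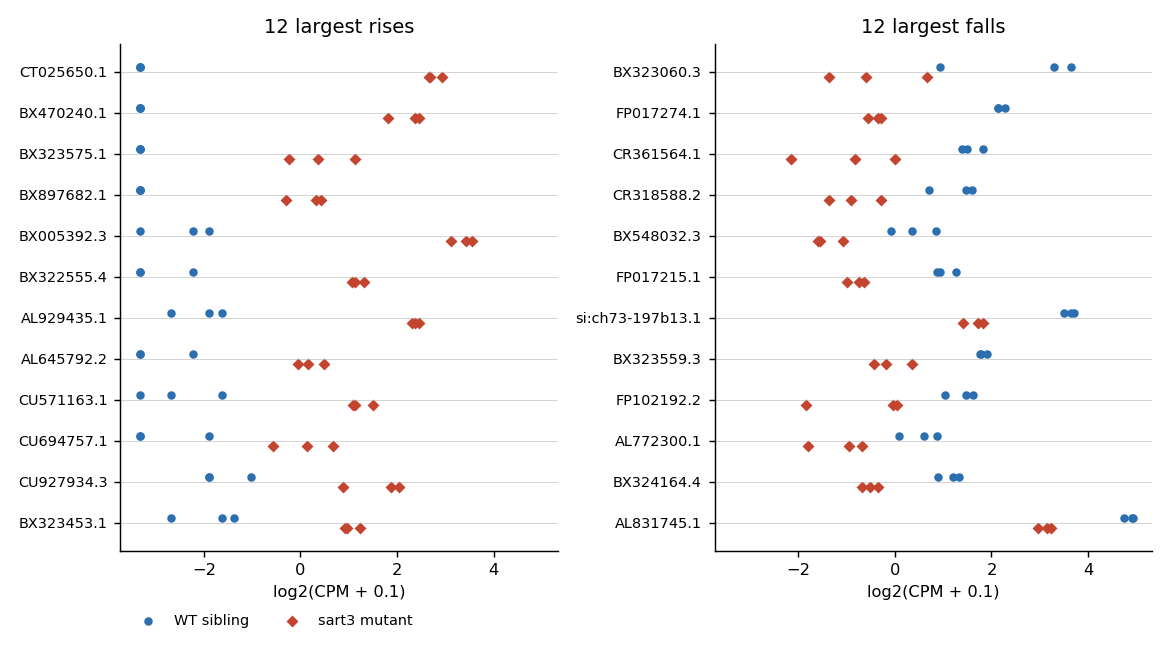
CPM of each library, as log2(CPM + 0.1), for the 12 largest rises (left) and the 12 largest falls (right) among members with an adjusted p under 0.05, no overlap and at least 1 CPM in a group. Blue circles are the 3 WT siblings and red diamonds the 3 *sart3* mutants; points at the far left edge are libraries with 0 counts.

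Among members that rose opposite to a protein-coding gene, AL929435.1 (chromosome 20, 46553223 to 46554160) lies across from *fosab*, which encodes a Fos transcription factor of the early response to stimulation. It had 0.224, 0.0565 and 0.169 CPM in siblings and 5.09, 5.42 and 4.84 CPM in mutants, or 5.02 ± 0.37 (SE) as a log2 fold change (adjusted p = 3.75e-05). On its own strand it overlaps si:ch211-153j24.3, which was not called (log2 fold change 0.46, adjusted p = 0.401). *fosab* rose too, from 163 ± 34.4 to 351 ± 11.1 CPM (SD, n = 3, log2 fold change 1.11, adjusted p = 0.000506 from edgeR). The strand setting of the counting was not given, so reads of a gene and of its antisense partner cannot be told apart, and this holds for every overlapping pair below.

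CU929339.1 (chromosome 6, 57479251 to 57480717) lies opposite to *snrpb*, which encodes a core protein of the spliceosomal particles. It had 0.673, 0.283 and 0.338 CPM in siblings and 4.63, 4.11 and 3.22 CPM in mutants (log2 fold change 3.19, standard error 0.37, adjusted p = 0.000395). *snrpb* rose from 114 ± 17.3 to 232 ± 25.8 CPM (SD, n = 3, log2 fold change 1.02, adjusted p = 0.000438 from edgeR). The log2 fold change of CU929339.1 was larger than that of *snrpb*, but it started from under 1 CPM in every sibling library. Its groups did not overlap. The same held for all 127 members called, but this was not counted over all genes called, so nothing is read from it.

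Across from *nufip2*, an RNA-binding protein gene, BX322555.4 went from 0, 0.113 and 0 CPM to 2.37, 1.99 and 2.09 CPM, while *nufip2* rose by a log2 fold change of 0.36 (adjusted p = 0.00375). In the *hoxc* cluster, whose genes set position along the body axis, BX005254.4, opposite to *hoxc3a*, had 1.18, 1.24 and 1.07 CPM in siblings and 3.41, 3.24 and 2.57 CPM in mutants (log2 fold change 1.40, adjusted p = 0.00475). BX005254.2 lies in the same cluster and rose by a log2 fold change of 1.05 (adjusted p = 0.0324), but DESeq2 did not call it (adjusted p = 0.11), nor did edgeR with any 1 library left out (adjusted p = 0.0537 to 0.108). BX005254.4 also overlaps *hoxc9a* on the opposite strand, which rose by a log2 fold change of 0.44 (adjusted p = 0.0485). The neighbours *hoxc3a* and *hoxc4a* were not called.

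Inside introns, BX571680.1 rose with its host *celf1*, a regulator of splicing and mRNA decay. It had 25.4, 32.9 and 31.3 CPM in siblings and 47.2, 46.0 and 51.8 CPM in mutants (log2 fold change 0.69, adjusted p = 0.00211), and *celf1* rose by 0.32. CT583708.1 went against its host: it had 0.785, 0.339 and 0.563 CPM in siblings and 2.26, 2.87 and 2.39 CPM in mutants (log2 fold change 2.14, adjusted p = 0.00272), while *pde4bb*, a phosphodiesterase gene, fell by a log2 fold change of 0.92 (adjusted p = 0.00449). A further 3 lincRNA genes on chromosome 4 between 76847462 and 76863920 rose side by side. CABZ01015815.5 had 2.19, 2.15 and 2.48 CPM in siblings and 7.35, 5.92 and 7.88 CPM in mutants, and CABZ01015815.4 and CABZ01015815.3 rose by log2 fold changes of 2.43 and 2.51. The last was not called without mutant 2 or sibling 3 (adjusted p = 0.058 and 0.0542). All 3 lie inside the span of CABZ01015815.1, a longer lincRNA gene on the same strand that was not called (log2 fold change -0.26, adjusted p = 0.397), and whether these genes share sequence, and so reads, was not examined.

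Of the 12 largest falls, 10 were of genes that overlap no protein-coding gene. BX323060.3 (chromosome 7, 38036841 to 38039046) had 9.76, 12.4 and 1.80 CPM in siblings and 0.289, 0.561 and 1.49 CPM in mutants. Sibling 3 lay close to mutant 3, and the fall of -3.34 as a log2 fold change (adjusted p = 0.0119) was not called by limma-voom (adjusted p = 0.0831) or without mutant 2 (adjusted p = 0.0528). FP017274.1 (chromosome 17, 27400703 to 27401354) had 4.77, 4.30 and 4.28 CPM in siblings and 0.579, 0.685 and 0.717 CPM in mutants, a fall by 2.74 on the log2 scale (standard error 0.25, adjusted p = 0.000118). It ends 907 bases before the microRNA gene *dre-mir-124-4* on the same strand, a copy of the neuronal miR-124.

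CR361564.1 (chromosome 16, 17704917 to 17706631), which holds *dre-mir-190b*, had 2.52, 3.45 and 2.70 CPM in siblings and 0.463, 0.125 and 0.896 CPM in mutants (log2 fold change -2.52, adjusted p = 0.00668). BX323559.3, on chromosome 2 with *bfsp2* as the gene with the nearest start, had 3.65, 3.28 and 3.32 CPM in siblings and 0.636, 1.18 and 0.776 CPM in mutants (log2 fold change -1.98, adjusted p = 0.00168). *bfsp2*, which encodes a beaded filament protein of lens fibre cells, fell from 112 ± 14.3 to 12.1 ± 4.42 CPM (SD, n = 3, log2 fold change -3.22, adjusted p = 3.85e-05 from edgeR). Both lens markers fell too, and their sum was 1135 to 1378 CPM in siblings and 281 to 466 CPM in mutants.

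AL831745.1 (chromosome 13, 24585224 to 24588220) had the highest level among the 12 largest falls and the smallest adjusted p. It had 30.0, 30.2 and 26.6 CPM in siblings and 7.70, 8.72 and 9.26 CPM in mutants, a fall by 1.76 on the log2 scale (standard error 0.12, adjusted p = 1.96e-05), and its current symbol is that of a protein-coding gene in RefSeq. The si:ch73-197b13.1 gene had 13.1, 11.3 and 12.4 CPM in siblings and 3.18, 3.43 and 2.57 CPM in mutants (log2 fold change -2.001, adjusted p = 7.86e-05). The other 6 of the 12, CR318588.2, BX548032.3, FP017215.1, FP102192.2, AL772300.1 and BX324164.4, had log2 fold changes between -2.29 and -1.81. That no mutant library overlapped the siblings was a condition for entering this list. AL772300.1 was not called without mutant 2 or sibling 3 (adjusted p = 0.0626 and 0.0517), nor FP102192.2 without sibling 3 (adjusted p = 0.0652).

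Some falls were of members that overlap a protein-coding gene. CR936482.1, across from *otx2b*, a homeobox gene of forebrain and eye, had 1.46, 2.88 and 1.58 CPM in siblings and 0.521, 0.685 and 0.955 CPM in mutants (log2 fold change -1.45, adjusted p = 0.0283), and *otx2b* fell from 48.0 ± 3.48 to 23.7 ± 1.70 CPM (SD, n = 3, adjusted p = 0.000118 from edgeR). BX248324.1, across from *sox11b*, a gene of young neurons, fell by a log2 fold change of 0.77 (adjusted p = 0.0164) and *sox11b* by 0.61 (adjusted p = 0.00214). CR936482.1 was not called without mutant 1, mutant 2 or sibling 2 (adjusted p = 0.101, 0.0916 and 0.0922), nor BX248324.1 without mutant 1 (adjusted p = 0.0633). BX005228.1 overlaps *hnrnpa0a*, an RNA-binding protein gene, on the same strand, and fell from 34.9, 24.5 and 32.4 CPM to 11.9, 10.5 and 6.57 CPM (log2 fold change -1.67, adjusted p = 0.000817). *hnrnpa0a* was not called (log2 fold change 0.22, adjusted p = 0.194).

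A microRNA gene of the table lay inside 28 members on the same strand, and 19 of these were tested. This group was put together after the values were seen. Of the 19, 7 fell and 1 rose, a share called of 42.1% beside 27.9% of all genes tested, and the median log2 fold change was -0.66. The members that fell held copies of miR-9 (4 members), miR-137, miR-190b and a microRNA row without a family name, in CR376745.2 (log2 fold change -1.15). miR-9 is a microRNA of the developing brain that acts in neural progenitors, and miR-137 is rich in the brain.

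All 5 members with a copy of miR-9 were tested, and they lie on 5 chromosomes. CU467822.1, with *dre-mir-9-6*, had 53.2, 40.8 and 43.9 CPM in siblings and 29.6, 24.9 and 24.5 CPM in mutants, a fall by 0.80 on the log2 scale (standard error 0.12, adjusted p = 0.00179). BX664610.1, with *dre-mir-9-4*, fell by 0.81 (adjusted p = 0.00298), BX465834.1, with *dre-mir-9-5*, by 0.79 (adjusted p = 0.00434) and CR848047.1, with *dre-mir-9-1*, by 0.34 (adjusted p = 0.0147, but 0.0633, 0.0615 and 0.0512 without mutant 1, mutant 2 or sibling 3). CU929451.2, with *dre-mir-9-3*, was not called, at 1.74, 2.20 and 1.92 CPM in siblings and 1.504, 2.62 and 1.85 CPM in mutants.

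FP085414.1, with *dre-mir-137-2*, went from 52.5, 44.1 and 43.3 CPM to 24.5, 24.4 and 26.3 CPM (log2 fold change -0.89, adjusted p = 0.000309). All 4 markers listed for neural progenitors fell as well. As group means, *sox2* went from 65.7 CPM in siblings to 35.4 CPM in mutants and *her4.1* from 2.55 to 1.22 CPM. The others, *mki67* (151 to 94.5 CPM) and *pcna* (253 to 180 CPM), belong to dividing cells of any tissue. The part of neural progenitors in these falls was not tested. The member that rose was CR388207.1, with *dre-mir-34a*, whose microRNA is a known target of p53 in mammals. It had 1.12, 1.07 and 0.62 CPM in siblings and 2.03, 2.18 and 1.97 CPM in mutants (log2 fold change 1.13, adjusted p = 0.0299), and neither DESeq2 (adjusted p = 0.0683) nor edgeR without any 1 library other than sibling 1 (adjusted p = 0.0584 to 0.0969) called it. None of the 24 microRNA rows inside the 19 members had enough counts for a test.

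**Figure D4:**
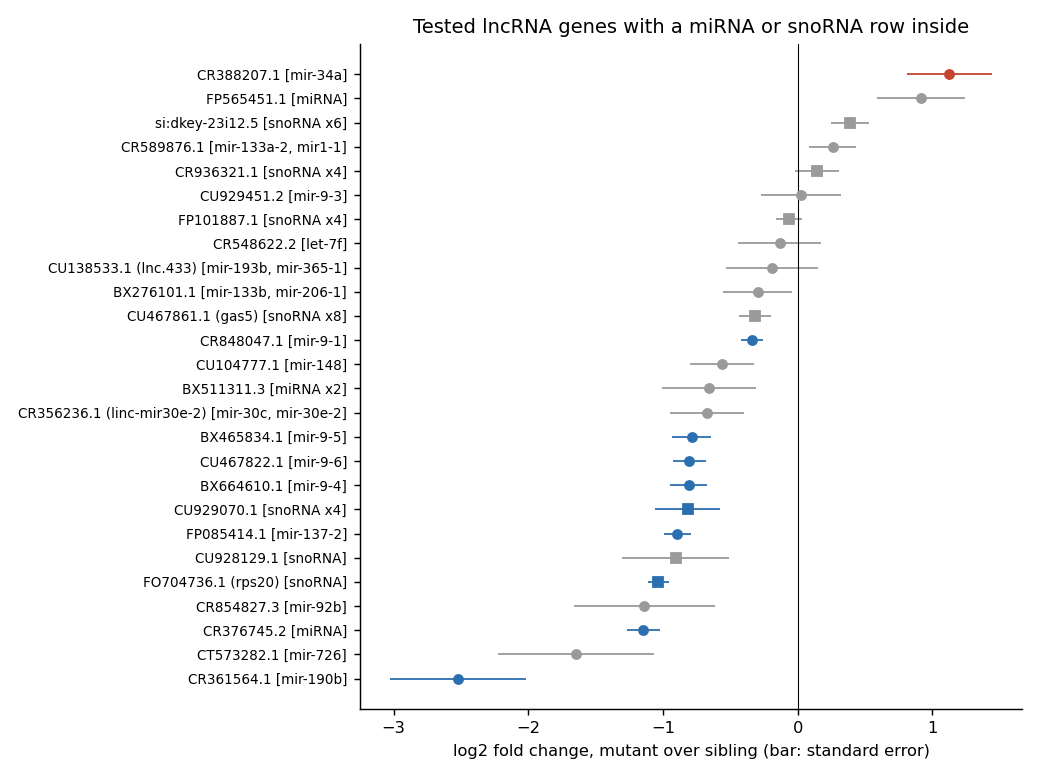
Log2 fold change of mutants over siblings, with its standard error as a bar, for the 26 tested members that hold a microRNA row (circles) or a small nucleolar RNA row (squares) on the same strand; red is called higher, blue called lower and grey not called. The small RNAs are named in brackets, and 4 of the 5 members with a copy of mir-9 lie left of 0 in blue.

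Small nucleolar RNA rows lay inside 9 members, of which 7 were tested. FO704736.1 (*rps20*) was the largest change by CPM, with 946, 911 and 928 CPM in siblings and 498, 453 and 407 CPM in mutants (log2 fold change -1.04, standard error 0.08, adjusted p = 4.14e-05). CU929070.1 fell by 0.82 (adjusted p = 0.036). CU467861.1, the growth arrest gene *gas5*, which carries 8 such rows, had 19.5, 22.4 and 23.3 CPM in siblings and 19.1, 17.4 and 15.8 CPM in mutants (log2 fold change -0.32, adjusted p = 0.0779), a difference that passed only without sibling 1 (adjusted p = 0.0356).

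Several well known lncRNAs did not pass the test. CR383676.1, the zebrafish *malat1* gene, a long nuclear RNA near splicing speckles, had 780, 861 and 742 CPM in siblings and 750, 856 and 699 CPM in mutants (log2 fold change -0.05, standard error 0.09, adjusted p = 0.731), and the groups overlapped. *oip5-as1*, also called cyrano, which promotes the decay of miR-7 in mammals, had 219.9, 228 and 234 CPM in siblings and 194, 201 and 213 CPM in mutants (log2 fold change -0.17, standard error 0.06, adjusted p = 0.075). FP102167.1, the *sox2* overlapping transcript *sox2ot*, had 4.21, 3.56 and 3.61 CPM in siblings and 3.53, 3.61 and 2.03 CPM in mutants (log2 fold change -0.31, adjusted p = 0.426), while *sox2*, the progenitor gene it overlaps, fell by 0.89 on the log2 scale (adjusted p = 0.000375).

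Of 22 tested members with a symbol that is neither a clone name nor that of a RefSeq protein-coding gene, 1 rose and 2 fell. The rise was BX005254.2 of the *hoxc* cluster. The falls were CU468915.1 (*lnc.370*), from 1.74, 1.41 and 1.75 CPM to 0.694, 0.436 and 0.299 CPM (log2 fold change -1.76, adjusted p = 0.0098), and CR936442.1 (*erv*), from 11.1, 8.20 and 9.97 CPM to 4.34, 4.67 and 7.05 CPM (log2 fold change -0.86, adjusted p = 0.0202). The last was not called without mutant 1, mutant 2 or sibling 3 (adjusted p = 0.0744, 0.0789 and 0.0602). The 19 others, among them *linc.alien*, *linc.phox2bb*, *birc6-as2* and *linc-mir30e-2*, had log2 fold changes between -1.11 and 0.75. The highest of these belonged to BX950188.1 (*cpn2*). The 22 only lack a match to a RefSeq protein-coding symbol, so not each need be an lncRNA. Of 27 with the symbol of a RefSeq protein-coding gene, 5 rose by 0.25 to 0.61 and 5 fell, by 0.38 to 1.04 on the log2 scale. Of all genes tested 13.6% rose and 14.3% fell. The groups of 22 and 27 were not matched for level, so they are not compared with each other.

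The remaining members among the 10 with the most reads went different ways. FQ323156.1 (chromosome 16, 51192655 to 51214029) rose from 129, 131 and 129 CPM to 195, 198 and 203 CPM (log2 fold change 0.62, standard error 0.05, adjusted p = 9.38e-05). BX322618.1 (chromosome 20, 12203762 to 12208117) fell from 142, 155 and 144 CPM to 92.8, 103 and 97.1 CPM (log2 fold change -0.59, adjusted p = 0.000381). LO018013.1, whose symbol is that of a RefSeq protein-coding gene, was not called, at 114 to 121 CPM in siblings and 102 to 112 CPM in mutants, and neither was BX901923.2, at 58.3 to 65.0 and 60.1 to 63.8 CPM. FO834840.1 (*dsg2.1*) and CABZ01088109.1 (*scaf8*) rose by 0.35 and 0.25, and LO018541.1 (*oxr1a*) fell by 0.52. The call of CABZ01088109.1 was lost without mutant 1, mutant 2, sibling 2 or sibling 3 (adjusted p = 0.0615 to 0.0976).

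Position relative to protein-coding genes was read from the coordinates of the table. Of 53 tested members that overlap a protein-coding gene on the same strand, 13 rose (24.5%) and 5 fell (9.43%), with a median log2 fold change of 0.30. Of 127 that overlap it on the opposite strand, 17 rose (13.4%) and 16 fell (12.6%), with a median of 0.10, and of 295 without overlap 37 rose (12.54%) and 39 fell (13.2%), with a median of -0.01. Of all genes 13.6% rose and 14.3% fell, with a median of 0.01. The 53 same-strand members had a median level of 1.69 CPM, and 9 of their 13 rises were at least 2-fold. Genes this low can pass the filter through 1 group. The shares by position were not taken again with at least 10 counts in every library, so nothing is read from their direction. Of 8 members with a start within 1 kb of a start on the other strand, edgeR called 0, with 0 at an unadjusted p under 0.05 and 0 calls by DESeq2 or limma-voom.

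Across 428 pairs of a member and its neighbour that were both tested, the log2 fold changes had a Pearson correlation of 0.16, and across the 120 pairs overlapping on opposite strands 0.25. Both values are across genes, which are not independent replicates. They were taken in the same 6 libraries, and overlapping pairs can share reads. Each member was paired with 1 gene. Of 30 called members in opposite-strand pairs the partner was called too in 11, of which 10 went the same way and 1, CR388369.1 with *nrip1a*, went apart. Of 15 called members in same-strand pairs the partner was called in 6, of which 3 went the same way and 3 apart. Of 67 called members in pairs without overlap the partner was called in 25, of which 14 went the same way and 11 apart. Of all genes tested 27.9% were called. Among the same-strand pairs that went apart was BX957297.1, up by 1.92 where *syt13* fell by 0.66 on the log2 scale. Another was CU459093.1, with a log2 fold change of -1.02 where *srsf11*, a splicing factor gene, rose by 0.22. CU459093.1 also overlaps *trappc10* on the opposite strand, a second partner outside these counts, which rose by 0.55 (adjusted p = 0.0015). Some of these calls were lost with libraries left out: BX957297.1 without mutant 2, mutant 3, sibling 1 or sibling 2 (adjusted p = 0.089 to 0.122), CU459093.1 without mutant 1, mutant 2 or sibling 3 (adjusted p = 0.063 to 0.0715) and *srsf11* without mutant 2, mutant 3, sibling 2 or sibling 3 (adjusted p = 0.0737 to 0.0908).

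Members were also counted by chromosome. Chromosome 4 held most, with 275, of which 37 were tested, and 8 rose (21.6%) and 3 fell (8.11%). All 8 rises were at least 2-fold, and the median level of the 37 was 1.22 CPM. On chromosome 5, which carries *sart3*, 6 rose (22.2%) and 4 fell (14.8%) of 27 tested. Of all genes tested 13.6% rose and 14.3% fell. Of 180 genes of any kind tested within 5 Mb of *sart3*, 25.6% rose and 13.3% fell. The only member tested there was CR759885.1 (20542992 to 20545523). It had 3.76, 3.11 and 3.04 CPM in siblings and 1.62, 2.12 and 2.09 CPM in mutants (log2 fold change -0.76, adjusted p = 0.0453). It was not called by DESeq2 (adjusted p = 0.101) or with any 1 library left out (adjusted p = 0.0732 to 0.139). CT025650.1 lies on the same chromosome outside that window. Effects of the mutation and of other variants on the haplotype selected with it cannot be told apart in this region.

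Genes for the handling of noncoding RNA in the nucleus were counted in the same way. Of 40 tested genes of the exosome, its cofactors, the cap-binding complex and the Integrator complex, which ends transcription of small nuclear RNAs, 3 rose and 4 fell, where 13.6% and 14.3% of all genes did, with a median log2 fold change of -0.09. With a library left out 1 to 3 rose, 1 in each case but that of sibling 3, and 1 to 4 fell, with 1 without mutant 1 or sibling 3 and 2 without mutant 2. Of the 12 exosome genes edgeR called 0, with 3 at an unadjusted p under 0.05 and 0 calls by DESeq2 or limma-voom, and their median was -0.28. Genes were counted by identifier here, and *exosc3* entered both from chromosome 14 and from KN150491.1. The smallest adjusted p belonged to *ints10*, which fell from 20.3 ± 2.99 to 13.1 ± 0.78 CPM (SD, n = 3, log2 fold change -0.63, adjusted p = 0.00839 from edgeR). *ints7* rose from 15.6 ± 2.23 to 23.6 ± 1.60 CPM (SD, n = 3, log2 fold change 0.60, adjusted p = 0.0092 from edgeR) and *ncbp3*, a cap-binding protein gene, fell from 33.2 ± 1.14 to 26.3 ± 0.392 CPM (SD, n = 3, log2 fold change -0.34, adjusted p = 0.0142 from edgeR, but 0.0537 and 0.0558 without mutant 1 or sibling 3).

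The deposited lists of differential splicing held 2075 events, of which 25 fell in 22 lncRNA genes. These were 16 skipped exons, 4 pairs of mutually exclusive exons, 4 retained introns and 1 alternative 5′ splice site. All had passed a test made by the authors on these libraries, so a difference is the rule of the list. The reads come in a first and a second set of 3 libraries, called set 1 and set 2 here, and the headers name neither. An exon of *mdm4*, which the study describes as skipped in mutants, serves as an anchor. Its inclusion was 0.124 ± 0.0712 in set 1 and 0.977 ± 0.0251 in set 2 (SD, n = 3). In 13 of the 25 events a library had under 10 junction reads, and 9 had a library with none.

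Of the 12 events with at least 10 reads in every library, 5 had inclusion levels that did not overlap between the sets. This share was not taken over all listed events, which were listed for a difference, so nothing is read from it. The largest of the rises in set 1 was the retained intron of CU467861.1 (*gas5*) on chromosome 8, 16611264 to 16611553. Its inclusion was 0.346, 0.28 and 0.36 in set 1 and 0.0961, 0.0511 and 0.0496 in set 2, from 69 to 131 reads a library (two-sided exact permutation test, p = 0.1). This intron of 290 bases holds the whole of 2 overlapping small nucleolar RNA rows, and both had 0 counts in every library. Of 28 small nucleolar RNA rows inside tested members, only 1 had enough counts for a test. Nothing is thus read from these 0 counts.

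The other retained intron with enough reads also lay in a member with small nucleolar RNA rows. In CR936321.1 (chromosome 5, 61351623 to 61351846) inclusion was 0.179, 0.118 and 0.191 in set 1 and 0.0384, 0.0644 and 0.0506 in set 2, and this intron holds none of the 4 rows. Neither gene was called for expression. In BX465834.1, the member with *dre-mir-9-5*, a pair of mutually exclusive exons had 0.195, 0.28 and 0.203 for the first form in set 1 and 0.0871, 0 and 0 in set 2. A second event listed for the same pair of exons went the other way and overlapped, with 0.239, 0.504 and 0.134 in set 1 and 0.539, 0.548 and 0.504 in set 2. A skipped exon of AL954741.2 had an inclusion of 0.172 ± 0.021 in set 1 and 0.458 ± 0.0941 in set 2, and that of LO018541.1 (*oxr1a*) had 0.634 ± 0.096 and 0.766 ± 0.0574 (SD, n = 3). In the other 7 events the sets overlapped.

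**Figure D5:**
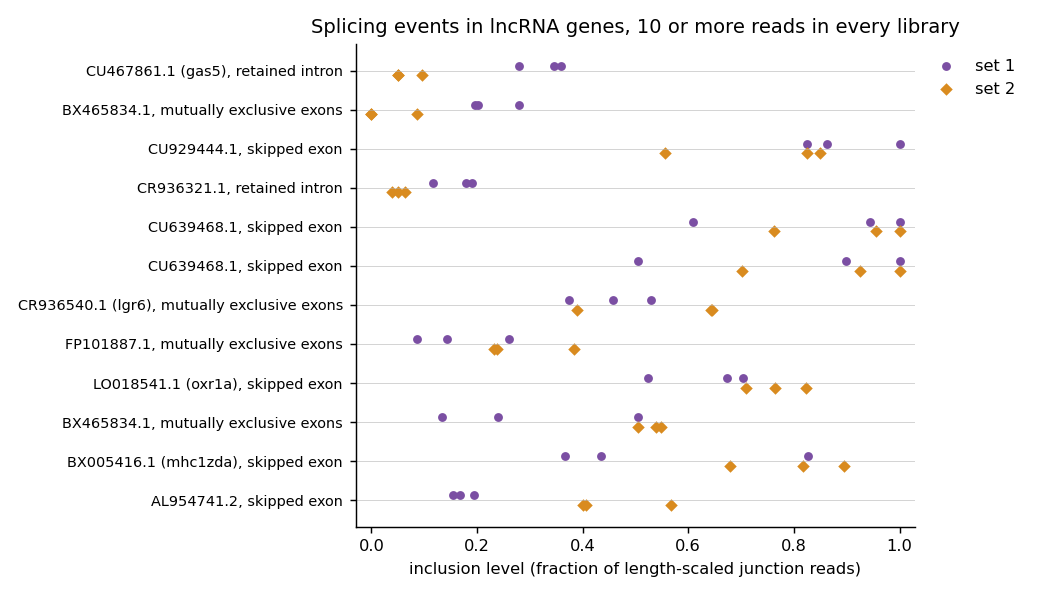
Inclusion level, the fraction of length-scaled junction reads for the longer or first form, in each library of set 1 (purple circles) and set 2 (orange diamonds) for the 12 events in lncRNA genes with at least 10 reads in every library. The retained introns of CU467861.1 (*gas5*) and CR936321.1 lie higher in set 1, and 7 of the events overlap.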

How the data were processed

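RNA of whole larvae was sequenced from 3 *sart3* smu471 mutant and 3 WT sibling libraries prepared with a NEBNext Ultra kit. The authors deposited counts per gene without normalization, and FPKM that the authors made from them. The submitters' processing notes name HISAT2 2.0.5, featureCounts 1.5.0-p3 and GRCz11, and leave the strand setting unstated. For splicing, junction reads and the lengths of both forms were used from 5 rMATS tables. Their p-values, false discovery rates and inclusion differences are the authors' comparison and were not used. No column per library was left out.

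Counts were fitted over all genes with R 4.3.3, edgeR 4.0.16 (filterByExpr, TMM, quasi-likelihood test, Benjamini-Hochberg adjustment at 0.05). Alternatives used DESeq2 1.42.0, limma 3.58.1 (voom), other factors and filters, a replicate block and each library left out. Sums and inclusion were compared with exact permutation tests (scipy 1.17.1). Named members are the 12 largest rises and 12 largest falls called, not overlapping and at 1 CPM or more in a group, the 10 with most reads, those with symbols not made from clones, those with a splicing event or within 5 Mb of *sart3*, and neighbours. Members and lists were chosen with earlier results of these data known. Intervals and floors cover counting error only. No sequence is printed, and the planned motif search was not run.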

Additional observations from a re-analysis of the deposited data

How the results depend on the processing

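The count of lncRNA genes higher in mutants was 67 and that of lncRNA genes lower in mutants 60. With at least 10 counts in every library the counts were 40 and 44, and 84 called in all, because members low in a group were no longer tested. With a change of 2-fold or more required they were 43 and 31 (11 and 16 with both requirements, a combination chosen after seeing the data). For the 245 tested members overlapping no other gene they were 28 and 26 (11.4% and 10.6%). For the 197 tested lincRNA genes alone they were 19 and 25 (9.64% and 12.7%). Of all genes tested 13.6% rose and 14.3% fell. RLE and upper-quartile factors, DESeq2, limma-voom, no filter and the region outside chromosome 5 kept both counts within 1.5 times. The shares did not hold in the same way, because 868 members were tested with DESeq2 and 1832 without the filter, against 483. The share higher was then 8.41% and 4.48%, beside 11.31% and 9.36% of all genes. The share lower was 6.57% and 3.33%, beside 12.24% and 10.93% of all genes. Of the 67, 56 were also called higher by DESeq2 and 65 by limma-voom. With each library left out, 50 to 67 members were higher and 40 to 57 lower. None of the 127 changed sign in any of these fits. In all 127 the groups did not overlap, so a change of sign was not to be expected, and nothing is read from this. With at least 10 counts in every library, 33 of the 67 and 15 of the 60 were not tested at all.

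The summed level of lncRNA genes fell by 508 CPM. For members overlapping no other gene, a set that leaves out FO704736.1, it reversed to a rise of 76.8 CPM. After the data were seen, it was also taken without FO704736.1 and without members matched to a RefSeq protein-coding symbol, which left -32.1 and -25.5 CPM. With each library left out it ranged from -552 to -464 CPM. The genes of nuclear RNA surveillance higher in mutants were 3, and 1 to 3 with a library left out; those lower in mutants were 4, and 1 to 4. The splicing events in lncRNA genes dropped from 25 to 12 where each library had to hold 10 junction reads or more. Uncalled genes near 0 changed sign: BX901923.2 (0.01) without the filter on low counts (-0.0045), and CU929451.2 (0.03) with limma-voom (-0.0099). With a library left out, CU929451.2 ranged from -0.22 to 0.19, BX901923.2 from -0.029 to 0.053 and CR383676.1 from -0.13 to 0.016.

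Same-numbered libraries did not deviate together (correlations 0.0643, 0.0284 and -0.107), so the numbers were not read as pairs. With a replicate block 54 members were higher and 55 lower, and 1 surveillance gene was higher. The summed difference within replicate numbers, which equals that of the group means by construction, had p = 0.25 (exact permutation test). This is the smallest value that the test within replicate numbers can give, so it is not set against the test between groups.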
